A study of Mus musculus with 9 samples.

Results

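Forkhead factors are transcription factors that bind DNA through a winged-helix domain, and 8 of them are described here in the endothelium of the mouse cerebral cortex: Foxf1, Foxf2, Foxq1, Foxc1, Foxc2, Foxo1, Foxo3 and Foxp1. They were chosen by symbol, as factors known from endothelium, and each of the 8 had a row among the 32531 genes counted. Another 36 forkhead genes with a row served as the rest of the family. The mice were untreated adults that carry the Abcb1a-EGFP/Rpl10a transgene of line ES3026, in which sequence that regulates Abcb1a, the gene of an efflux pump at the blood-brain barrier, controls a ribosomal protein fused to green fluorescent protein. Ribosome-bound RNA was immunopurified through that tag (TRAP, translating ribosome affinity purification) and sequenced as the IP libraries, and input libraries held total RNA. There were 3 groups of 3 libraries: IPs whose RNA was extracted by investigator ES (ES IP), IPs extracted by investigator JL (JL IP) and inputs extracted by JL (JL input). All groups share the transgene and the tissue, and the submitters name no other functional distinction between the ES and JL samples. No label ties a group's 3 libraries to separate mice, so p-values here reflect only how far these libraries differ, which may be at least partly technical.

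Forkhead genes fall into subfamilies with different roles in vessels. FOXF and FOXC factors act in vessel development, and in mice Foxf2 and Foxc1 are needed for normal brain vessels and their mural cells. FOXO factors restrain growth and metabolism: growth factor and insulin signalling through AKT keeps them out of the nucleus, and Foxo1 is known from mouse endothelium as a brake on proliferation. Foxp1 is a repressor present in many cell types, cortical neurons among them.

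Depth was 31987470 to 46598478 gene counts per library, and a count of 3 equals between 0.0589 and 0.103 CPM (a gene's counts scaled to a common, normalised library size), so that levels near these values carry large counting error. All 28 pan-endothelial genes of a marker list were higher in the JL IPs than in the inputs, and all 15 neuron genes were lower. In the ES IPs the 28 pan-endothelial genes were also higher than in the inputs, but their summed level was 1388 to 2219 CPM, against 12050 to 12750 CPM in the JL IPs and 77.0 to 91.0 CPM in the inputs. The summed neuron level was 19510 to 21710 CPM in the ES IPs, 2353 to 3182 CPM in the JL IPs and 18350 to 19180 CPM in the inputs, so the ES IPs held neuron RNA at about the input level. By the lane in the deposited names, the ES IPs were sequenced in lane 6, and replicates 1, 2 and 3 of both JL groups in lanes 4, 2 and 3, so lane, investigator and group cannot be told apart for the ES IPs. The Y-linked gene Ddx3y had 660, 1037 and 855 counts in ES IP replicates 1 to 3, 2298, 1 and 0 in those of JL IP, and 3249, 1 and 0 in those of JL input. Each JL group thus drew on more than 1 mouse, with RNA of males in replicate 1 only. Whether replicates 2 and 3 came from separate mice cannot be told. All ES IPs held Ddx3y, so RNA of males was not balanced between the ES and JL IPs.

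Of the 8 genes, 5 lie in a pair of clusters. Foxq1, Foxf2 and Foxc1 follow each other on mouse chromosome 13 on the plus strand, with 64.8 kb between Foxq1 and Foxf2 and 175 kb between Foxf2 and Foxc1. Foxf1 and Foxc2 lie on chromosome 8 on the plus strand, 28026 bases apart, and Foxl1 follows Foxc2 after 9.04 kb. Foxo1, Foxo3 and Foxp1 stand alone on chromosomes 3, 10 and 6. In the GENCODE M21 annotation (mm10), Foxf2 starts 23 bases from the start of a long noncoding RNA on the opposite strand, 1700018A04Rik, and both transcripts were enriched in the IPs, as described further on. The 250 bases before the start of Foxf2 and of Foxc1 are shown because they hold this shared start region and that of its cluster neighbour (RefSeq, GRCm38.p6, plus strand; chr13:31625566-31625815 for Foxf2 and chr13:31806396-31806645 for Foxc1). The 23 capitals in Foxf2 mark the bases between both start sites.
Foxf2: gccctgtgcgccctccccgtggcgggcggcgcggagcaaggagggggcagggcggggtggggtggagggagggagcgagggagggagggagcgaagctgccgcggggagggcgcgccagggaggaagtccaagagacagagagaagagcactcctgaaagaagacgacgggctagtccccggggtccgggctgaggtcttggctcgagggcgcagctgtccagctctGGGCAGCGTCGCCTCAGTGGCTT
Foxc1: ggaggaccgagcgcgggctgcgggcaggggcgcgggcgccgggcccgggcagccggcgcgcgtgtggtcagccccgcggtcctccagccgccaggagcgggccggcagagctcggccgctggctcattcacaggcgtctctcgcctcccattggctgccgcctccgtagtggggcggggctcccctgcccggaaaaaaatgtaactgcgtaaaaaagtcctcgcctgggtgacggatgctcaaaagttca
Counted over 300 bases around the start, the promoter was 71.3% G and C in Foxf2 and 67.3% in Foxc1, against a median of 52.7% over 32851 RefSeq promoter entries. A search of both strands for GTAAACA (a forkhead motif), CTTTGAT (TCF/LEF), CCGGAAG (ETS) and ACAATGG (SOX) found none of these exact letters in either window. Of all promoter entries, 3.65%, 3.73%, 8.86% and 3.66% hold them. Among the 7 entries of 5 members that RefSeq's table held, the only match was the SOX motif in 1 of the 3 Foxp1 promoters.

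The first question is which of these factors were on tagged ribosomes of endothelium beyond their level in the whole cortex. All 8 were higher in the JL IPs than in the inputs, by 1.86-fold for Foxo3 to 485-fold for Foxf1, where 74.1% of the 17357 genes tested were called in either direction, 36.7% higher and 37.4% lower (edgeR's quasi-likelihood test, Benjamini-Hochberg adjusted p under 0.05). Foxf1, Foxq1 and Foxf2 stood highest, Foxc1 and Foxc2 followed, and Foxo1, Foxp1 and Foxo3 were higher by far less. In such bulk RNA, fewer cells of a type and less RNA per cell cannot be told apart. The JL groups overlapped in none of the 8, and 80.8% of all genes tested did not overlap either.

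Foxf2, a FOXF factor of brain endothelium and pericytes, had 371, 340 and 336 CPM in the JL IPs, against 1.24, 1.40 and 1.33 CPM in the inputs. Every JL IP was more than 200-fold above every input, and the inputs lay within a narrow band of each other. The log2 fold change was 8.04 ± 0.11 (SE, adjusted p = 1.23e-09), and 0.380% of all tested genes had a larger one. Its relative Foxf1, known in mice for its need in lung vessels, had 76.6, 70.7 and 84.5 CPM in the JL IPs, against 0.137, 0.220 and 0.109 CPM in the inputs. Those input values rest on 7, 11 and 5 counts, so the fold of 485 carries counting error from the inputs. Its log2 fold change was 8.92 ± 0.20 (adjusted p = 3.15e-09).

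Foxq1, a factor known from mouse brain endothelium, had 245, 242 and 212 CPM in the JL IPs, against 0.373, 0.559 and 0.544 CPM in the inputs. The log2 fold change was 8.89 ± 0.15 (adjusted p = 1.84e-09), within the error of that of Foxf1. An annotated antisense gene, A530084C06Rik, not analysed here, covers 66.1% of the exon bases of Foxq1, and the strand setting of the counting is not given in the sources used here, which leaves reads of both mixed if strand was ignored. For Foxf1, Foxf2 and Foxo1, opposite-strand genes cover 4.06%, 4.15% and 7.78% of the exon bases.

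Foxc1, a factor of the meninges, mural cells and endothelium, had 225, 210 and 190 CPM in the JL IPs, against 2.96, 3.43 and 2.81 CPM in the inputs. Foxc2, known for lymphatic valves, had 33.0, 35.0 and 42.4 CPM in the JL IPs, against 0.648, 0.878 and 0.935 CPM in the inputs. Both were well above the inputs in every JL IP, with log2 fold changes of 6.09 ± 0.12 for Foxc1 (adjusted p = 2.41e-09) and 5.49 ± 0.19 for Foxc2 (adjusted p = 3.66e-08). These lay below the median of the 28 pan-endothelial genes, 7.70, but inside their range of 4.02 to 9.49, while Foxf1, Foxf2 and Foxq1 lay above that median.

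Foxo1, the FOXO factor tied to vessel growth, had 402, 434 and 340 CPM in the JL IPs, against 72.6, 68.7 and 64.3 CPM in the inputs (log2 fold change 2.52 ± 0.11, adjusted p = 1.01e-07). Foxo3, a stress-linked FOXO factor of many tissues, had 111, 99.2 and 132 CPM in the JL IPs, against 56.1, 63.3 and 64.9 CPM in the inputs (log2 fold change 0.89 ± 0.11, adjusted p = 0.00012). Foxp1 had 666, 643 and 630 CPM in the JL IPs, against 240, 239 and 233 CPM in the inputs (log2 fold change 1.45 ± 0.06, adjusted p = 1.2e-07). These 3 were already abundant in total cortex RNA, and 27.0% of all tested genes had a larger log2 fold change than Foxo3. The size of the Foxo3 change depends on the scaling: it was 0.63 with library sizes alone, where the median of all tested genes shifted by -0.26, so relative to all genes it stayed nearly the same.

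**Figure D1:**
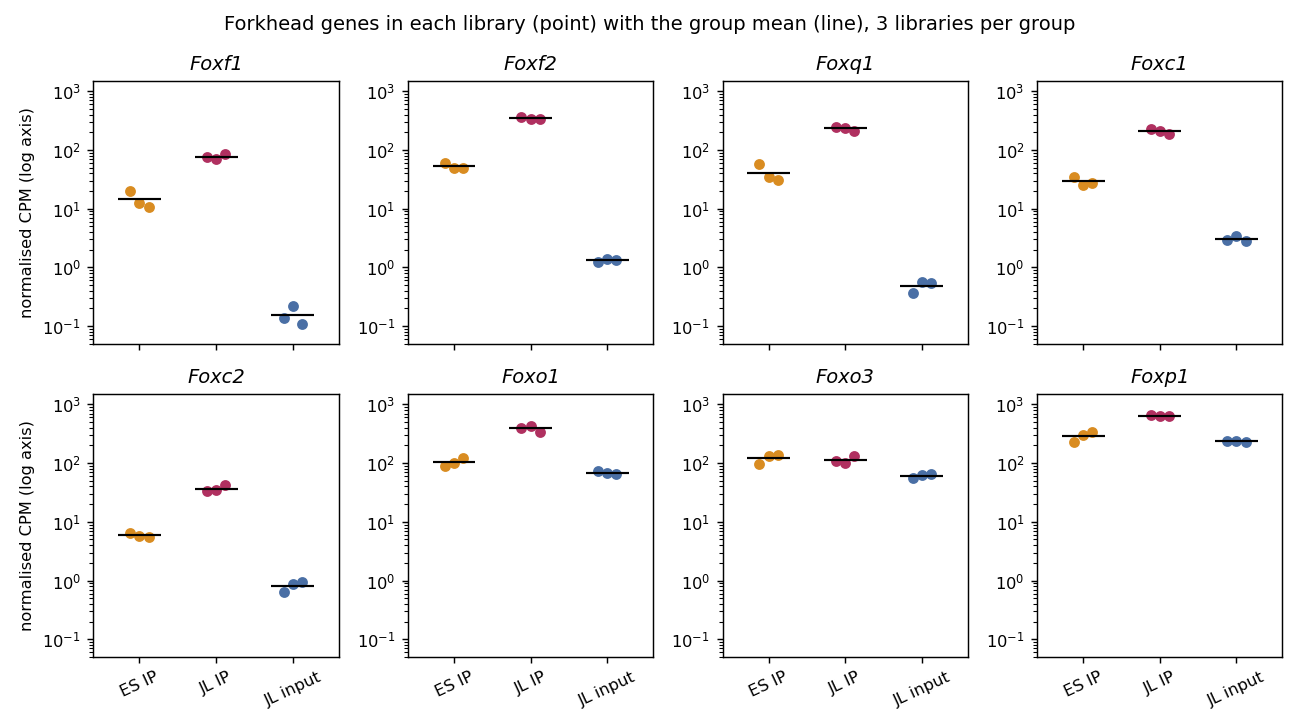
Normalised CPM (log axis) of each of the 8 forkhead genes in each library, by group (ES IP, JL IP, JL input), with 1 point per library and a line at the mean of 3 libraries. Foxf1, Foxf2, Foxq1, Foxc1 and Foxc2 are low in the inputs and high in the JL IPs, with the ES IPs between, while Foxo3 has a mean of 123 CPM in the ES IPs and 114 CPM in the JL IPs.

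Markers of other vessel-associated cells moved in different directions beside these genes. Over all genes tested in JL IP against input, 36.7% were higher and 37.4% lower. Of 12 pericyte genes, 1 was higher in the JL IPs (Anpep, 3.76 ± 0.29 on the log2 scale), 8 were lower and 3 did not pass, with Ndufa4l2 at -2.97 ± 0.88 and Rgs5 at -2.82 ± 0.42 the lowest. The summed pericyte level was 27.0 to 56.0 CPM in the JL IPs and 42.1 to 48.0 CPM in the inputs, and Anpep averaged 30.5 ± 11.3 CPM in the JL IPs and 2.26 ± 0.138 CPM in the inputs. Of 13 fibroblast and meningeal genes, 12 could be tested, 9 were higher and 2 lower, with Slc47a1 at 4.88 ± 0.44 and Crabp2 at 3.85 ± 0.22 the highest and Lum at -3.38 ± 0.56 and Slc6a13 at -1.84 ± 0.44 the lowest, and their sum was 189 to 308 CPM in the JL IPs, against 50.3 to 62.6 CPM in the inputs. Of 10 smooth muscle genes, 4 were higher and 3 lower, near the shares over all genes. Smtn at 5.84 ± 0.17 and Mylk at 2.37 ± 0.10 were the highest, and Cnn1 at -5.36 ± 1.08 and Des at -2.64 ± 0.99 the lowest. The 10 smooth muscle genes summed to 224 to 268 CPM in the JL IPs, against 47.0 to 51.3 CPM in the inputs. Most of that sum in the JL IPs was Smtn (mean 126 CPM) and Mylk (73.2 CPM). In each JL IP, 1 smooth muscle gene and 1 fibroblast gene were at 0. The part of pericyte, fibroblast, meningeal or smooth muscle RNA in the levels of Foxc1, Foxc2 and the others was not tested.

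Compared per kilobase of exon, which allows levels to be set between genes, Foxf2 was the most abundant of the 8 in the JL IPs, with 148 ± 8.06 CPM per kb (SD, n = 3). Foxq1 (48.1 ± 3.74), Foxp1 (47.0 ± 1.32) and Foxo1 (45.3 ± 5.54) followed and overlapped their neighbours in this order. Foxc1 (35.7 ± 3.02) and Foxf1 (32.0 ± 2.87) came next and overlapped each other, and Foxo3 (15.1 ± 2.21) and Foxc2 (13.5 ± 1.81) were lowest and overlapped as well.
In the ES IPs the order was Foxf2 (22.7 ± 2.68 CPM per kb), Foxp1 (21.1 ± 3.71), Foxo3 (16.2 ± 2.91), Foxo1 (12.2 ± 2.02), Foxq1 (8.52 ± 3.01), Foxf1 (5.99 ± 2.04), Foxc1 (5.03 ± 0.825) and Foxc2 (2.17 ± 0.182). Each of these overlapped the next, except that Foxc2 lay below Foxc1 in every library. In the inputs Foxp1 led with 17.3 ± 0.269 CPM per kb, Foxo3 (8.12 ± 0.618) and Foxo1 (7.91 ± 0.476) overlapped behind it, and the other 5 were below 1. With the longest transcript as the length, Foxp1 ranked first in the ES IPs (40.3) and second in the JL IPs (90.1), since its annotated exons join many isoforms.

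Set against the family, the 8 genes made up 42.1 ± 3.81% of the summed per-length level of all 44 forkhead genes for ES IP, 74.3 ± 0.842% for JL IP and 26.4 ± 0.593% for JL input. Foxf2 alone held 10.2 ± 2.12% for ES IP, 28.5 ± 0.819% for JL IP and 0.423 ± 0.0173% for JL input. The gene with the largest share of the forkhead level in the JL IPs was thus a trace in total cortex RNA.
Of the other 36 forkhead genes, 17 reached a mean of 1 CPM in some group, and 20 could be tested in JL IP against input: 9 were higher, 6 lower and 5 did not pass. Over all genes tested, 36.7% were higher and 37.4% lower. The median log2 fold change of these 20 was 0.35, against 5.79 for the 8 members and -0.09 for all genes. The 8 were chosen as factors known from endothelium, with earlier results of these data known, so their higher median is no independent result.

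Foxl2, known from the ovary and also from mouse brain endothelium, was the other forkhead gene with the largest fold. It had 38.4, 37.9 and 28.1 CPM in the JL IPs, against 0.157, 0.120 and 0.0870 CPM in the inputs, and its log2 fold change was 8.12 ± 0.26 (adjusted p = 2.00e-08), close to that of Foxf2. Foxd1, known from kidney stroma and pericyte lineages, had 4.25 ± 0.27 and Foxd2 3.69 ± 0.65. Foxo4, the third FOXO gene with endothelial expression, had 27.4, 28.6 and 24.5 CPM in the JL IPs, against 4.14, 4.67 and 4.09 CPM in the inputs, and a log2 fold change of 2.64 ± 0.14, next to the 2.52 of Foxo1. Foxj2 (1.30 ± 0.08), Foxn3 (1.13 ± 0.08), Foxn2 (0.71 ± 0.15) and Foxk1 (0.66 ± 0.07) were higher by less. Among those lower in the JL IPs were Foxo6, the neuronal FOXO gene (-1.77 ± 0.29), Foxj1, the factor of motile cilia (-2.58 ± 0.28), Foxr2 (-3.46 ± 0.52) and Foxj3 (-0.35 ± 0.10). Foxk2, Foxp2, Foxp4 and Foxm1 did not pass.

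**Figure D2:**
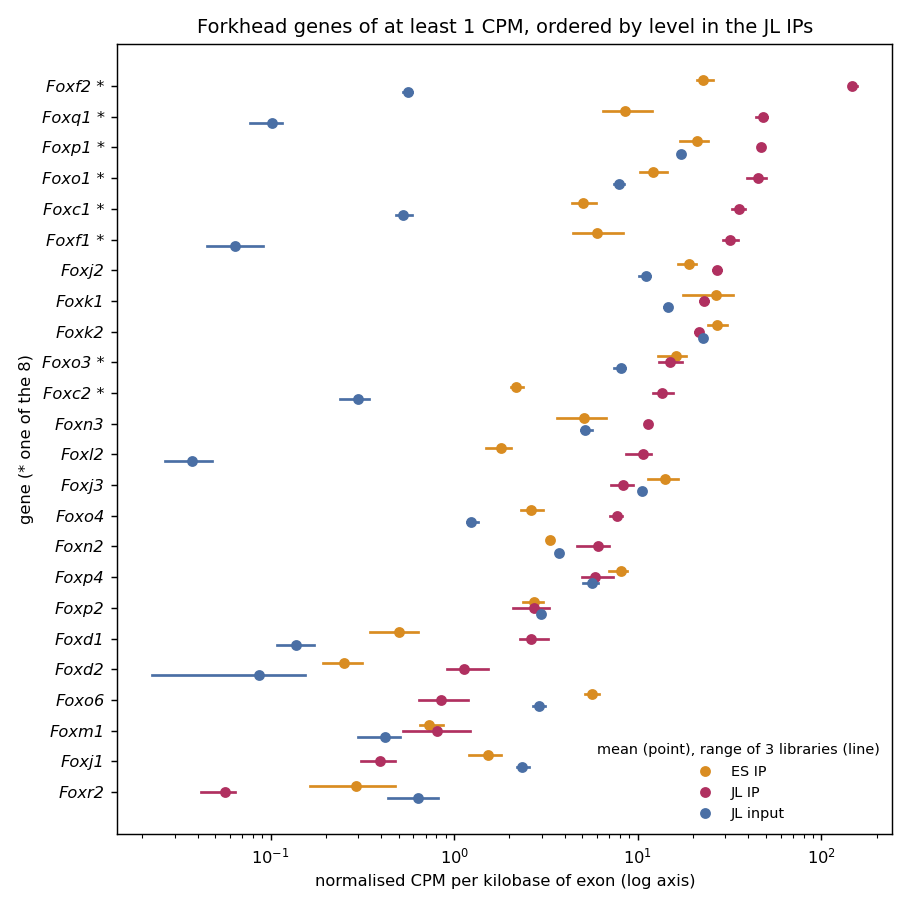
Mean level (point) and range over 3 libraries (line) of 24 forkhead genes with at least 1 CPM in some group, in CPM per kilobase of exon on a log axis, by group and ordered by the mean in the JL IPs. Foxf2 stands alone at the top of the JL IPs with 148 CPM per kb, and Foxf1, Foxq1 and Foxl2 have the widest gaps between JL IPs and inputs.

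The second comparison sets the IPs of the 2 investigators against each other, for which the submitters name no functional distinction. Of the 8 genes, 7 were lower in the ES IPs than in the JL IPs, none was higher and Foxo3 did not pass, where 57.9% of the 16212 genes tested were called, 28.2% lower and 29.7% higher. Foxf2 had 60.9, 49.9 and 49.9 CPM in the ES IPs, against 371, 340 and 336 CPM in the JL IPs (log2 fold change -2.62 ± 0.17, adjusted p = 8.8e-07). Foxq1 had 58.0, 34.4 and 31.3 CPM in the ES IPs, against 245, 242 and 212 CPM in the JL IPs (log2 fold change -2.42 ± 0.23, adjusted p = 7.73e-06). Foxf1 had 20.0, 12.6 and 10.8 CPM in the ES IPs, against 76.6, 70.7 and 84.5 CPM in the JL IPs (log2 fold change -2.34 ± 0.24, adjusted p = 1.05e-05).
The ES IPs did not overlap the JL IPs in any of these, as was so for 65.9% of all genes tested. ES IP replicate 1 had the highest level of the 3 ES IPs for Foxf1, Foxf2, Foxq1, Foxc1 and Foxc2 and the lowest for Foxo1, Foxo3 and Foxp1.

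Foxc1 had 34.8, 25.5 and 27.9 CPM in the ES IPs, against 225, 210 and 190 CPM in the JL IPs, and its log2 fold change of -2.75 ± 0.18 (adjusted p = 9.73e-07) was the largest fall of the 8. Foxc2 had 6.47, 5.73 and 5.54 CPM in the ES IPs, against 33.0, 35.0 and 42.4 CPM in the JL IPs (log2 fold change -2.56 ± 0.20, adjusted p = 2.08e-06). The 5 FOXF, FOXQ and FOXC genes thus fell by between 2.34 and 2.75 on the log2 scale, near the median of -2.77 over the 28 pan-endothelial genes, which ranged from -3.43 to -1.96.

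Foxo1 had 89.6, 103 and 124 CPM in the ES IPs, against 402, 434 and 340 CPM in the JL IPs (log2 fold change -1.81 ± 0.19, adjusted p = 1.33e-05), a smaller fall. Foxp1 had 234, 301 and 334 CPM in the ES IPs, against 666, 643 and 630 CPM in the JL IPs (log2 fold change -1.08 ± 0.18, adjusted p = 0.000433). Foxo3 had 97.4, 132 and 138 CPM in the ES IPs, against 111, 99.2 and 132 CPM in the JL IPs. Its groups overlapped, and its log2 fold change was 0.19 ± 0.19 (adjusted p = 0.424).
Among the other forkhead genes, Foxo6 (2.81 ± 0.30) was higher in the ES IPs, and Foxl2 (-2.48 ± 0.22) and Foxd1 (-2.30 ± 0.30) were lower. All 15 neuron genes rose, with log2 fold changes between 2.14 for Stmn2 and 4.17 for Eno2. Of 9 oligodendrocyte genes, 8 were higher in the ES IPs than in the JL IPs and 1 lower. Of 10 astrocyte genes, 7 were higher and 0 lower, and of 10 microglia genes, 6 were higher and 1 lower. Over all genes tested, 29.7% were higher and 28.2% lower. The part of neuron or glial RNA in the differences of Foxo1, Foxo3 and Foxp1 was not tested. Among the JL IPs, replicate 1, the only one with RNA of males, was highest for Foxf2 (371 CPM), Foxc1 (225 CPM), Foxq1 and Foxp1. That library was lowest for Foxc2 (33.0 CPM) and lay between the other JL IPs for Foxf1, Foxo1 and Foxo3. The part of RNA of males in the differences between ES and JL IPs was not tested, since a single JL IP held it.

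The third comparison asks what was enriched in the ES IPs, for which no ES inputs were analysed here, so the JL inputs stand in and investigator and fraction cannot be told apart. Of the 8 genes, 7 were higher in the ES IPs than in the JL inputs and Foxp1 did not pass, where 52.2% of the 17477 genes tested were called, 26.9% higher and 25.3% lower. With upper-quartile scaling, higher genes were 40.7% of all calls, against 51.5% with the scaling used here, and the median of all genes shifted by -0.15. The 7 forkhead genes were called higher under that scaling too. These comparisons share libraries with each other, so the values are set side by side only.

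Foxf1 (6.51 ± 0.36, adjusted p = 8.34e-06), Foxq1 (6.38 ± 0.32, adjusted p = 5.86e-06) and Foxf2 (5.34 ± 0.15, adjusted p = 1.32e-06) had the largest log2 fold changes of the 8, above the pan-endothelial median of 4.92. Foxc1 (3.26 ± 0.17, adjusted p = 6.54e-06) and Foxc2 (2.85 ± 0.21, adjusted p = 3.44e-05) followed, below that median. Foxo3 (0.998 ± 0.159, adjusted p = 0.00123) and Foxo1 (0.62 ± 0.15, adjusted p = 0.00776) were higher by little. Foxp1 averaged 290 ± 51.1 CPM in the ES IPs and 237 ± 3.69 CPM in the inputs (SD, n = 3 each), with a log2 fold change of 0.29 ± 0.15 (adjusted p = 0.147). Without ES IP replicate 1, which had the lowest Foxp1 level of the ES IPs, it was 0.43 and was called higher (adjusted p = 0.00108).

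**Figure D3:**
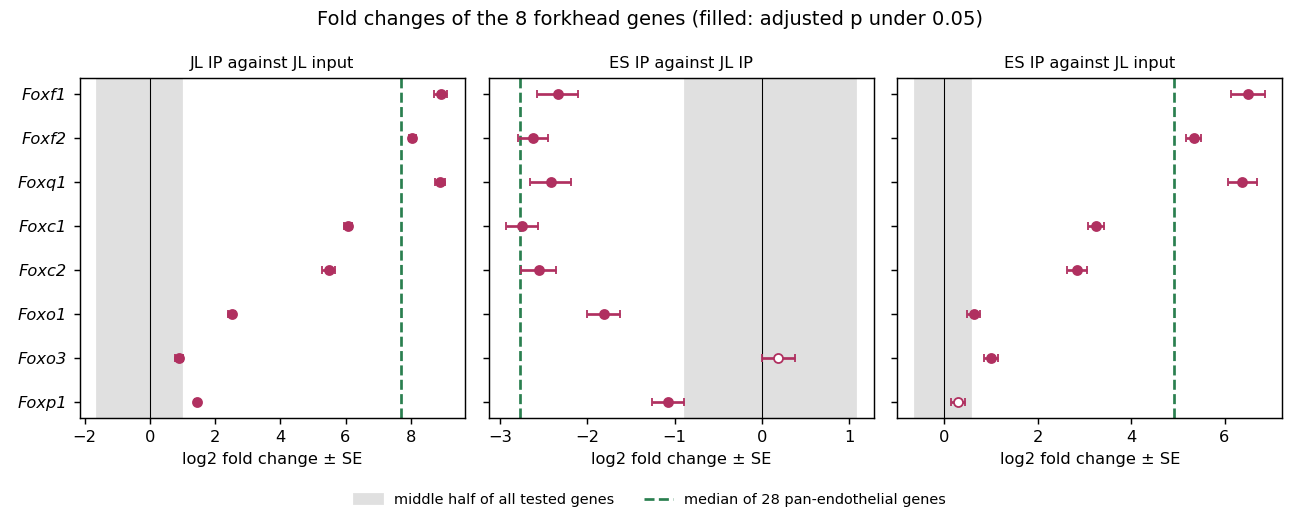
Log2 fold change ± SE of the 8 forkhead genes in each comparison (left: JL IP over JL input, centre: ES IP over JL IP, right: ES IP over JL input), filled where the adjusted p was under 0.05. The grey band holds the central 50% of all tested genes and the dashed line is the median of 28 pan-endothelial genes, which is 7.70, -2.77 and 4.92 from left to right.

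To follow each factor against the endothelial content of its library, its log2 level (CPM plus 0.5) was set against the median of the 28 pan-endothelial genes in the same library. Foxf2 stayed closest to that median, with 0.09 ± 0.06 for ES IP, 0.05 ± 0.09 for JL IP and -0.27 ± 0.14 for JL input (SD, n = 3 each). All ES and JL IPs lay between -0.03 and 0.15, and the groups of IPs overlapped (exact permutation test, two-sided, p = 0.5). Foxq1 was at -0.33 ± 0.28, -0.53 ± 0.18 and -1.15 ± 0.21 in the same order, and its IPs overlapped as well (exact p = 0.4). Foxf1 was at -1.81 ± 0.26, -2.12 ± 0.11 and -1.75 ± 0.04, where the added 0.5 exceeds its CPM in every input. The added 0.5 is also close to the input CPM of Foxq1 and Foxc2 and pulls the input values of all 3 up.

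Foxc1 was at -0.78 ± 0.12 for ES IP, -0.69 ± 0.16 for JL IP and 0.69 ± 0.04 for JL input. It lay above the pan-endothelial median in the inputs and below it in every IP. Foxc2 was at -2.99 ± 0.08, -3.18 ± 0.22 and -0.74 ± 0.25 in that order, so that both FOXC genes were lower relative to the median in the IPs than in total RNA.
Foxo1 was at 1.05 ± 0.42 for ES IP, 0.22 ± 0.26 for JL IP and 4.97 ± 0.13 for JL input. Foxo3 was at 1.26 ± 0.46, -1.57 ± 0.17 and 4.81 ± 0.20, and Foxp1 at 2.50 ± 0.46, 0.94 ± 0.11 and 6.76 ± 0.14. For these 3 the groups did not overlap in any comparison, with the ES IPs between the JL IPs and the inputs. With 3 libraries against 3, an exact two-sided test cannot go below p = 0.1, so none of these differences could pass 0.05.

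**Figure D4:**
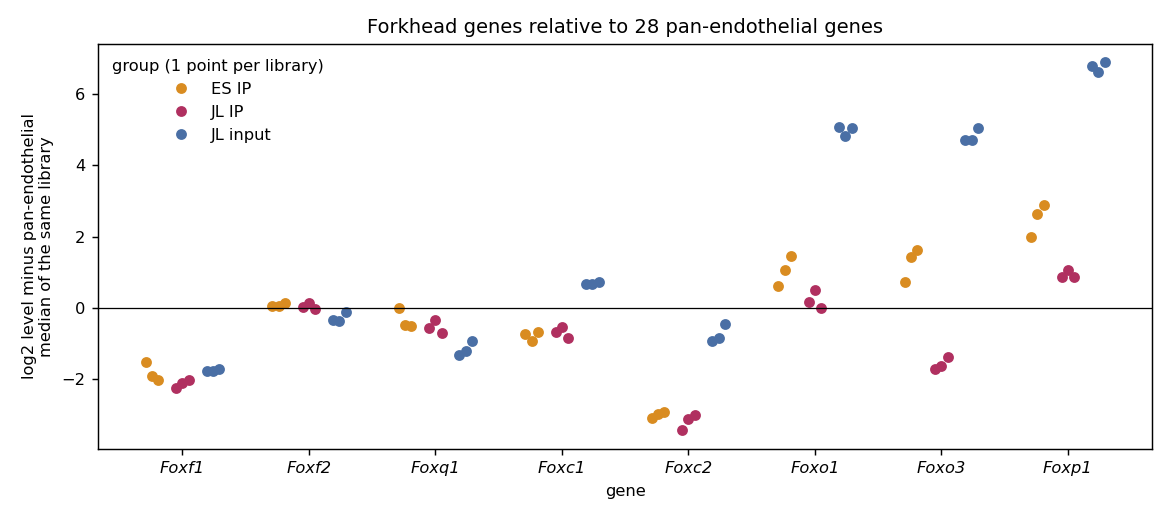
Log2 level of each forkhead gene minus the median of 28 pan-endothelial genes in the same library, 1 point per library, by group (ES IP, JL IP, JL input). Foxf2 lies within 0.4 of the line at 0 in all 9 libraries, while Foxo1, Foxo3 and Foxp1 lie between 4.7 and 6.9 in the inputs.

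Ratios of relatives within a library do not depend on library scaling. Per length, Foxo1 stood to Foxo3 as 0.804, 0.679 and 0.785 for ES IP, as 3.18, 3.83 and 2.25 for JL IP, and as 1.13, 0.949 and 0.866 for JL input. The JL IPs were the only libraries in which Foxo1 exceeded Foxo3 by more than 1.5 times, and no pair of groups overlapped (exact p = 0.1 for each pair, the smallest possible). Foxf1 reached 0.260 ± 0.0566 of the Foxf2 level for ES IP, 0.217 ± 0.0249 for JL IP and 0.114 ± 0.0371 for JL input. The ES and JL IPs overlapped (exact p = 0.2), and both lay above the inputs (exact p = 0.1). The input ratios rest on 7, 11 and 5 counts of Foxf1, so they carry large counting error. Foxc1 was 2.31 ± 0.218 times Foxc2 for ES IP, 2.69 ± 0.553 times for JL IP and 1.79 ± 0.369 times for JL input, and all groups overlapped (exact p from 0.2 to 0.4).

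Genes that act upstream and downstream of these factors were counted from lists. Of 21 genes that regulate FOXO factors, from insulin and growth factor receptors to AKT and the enzymes that modify FOXO proteins, 11 were higher in the JL IPs than in the inputs, 7 were lower and 3 did not pass, and the median log2 fold change was 0.28. Over all genes tested, 36.7% were higher, 37.4% were lower and the median was -0.09. The receptor gene Igf1r averaged 476 ± 25.8 CPM in the JL IPs and 90.5 ± 2.74 CPM in the inputs (2.40 ± 0.07), and the kinase gene Akt1 averaged 221 ± 6.22 CPM in the JL IPs and 55.7 ± 1.89 CPM in the inputs (1.99 ± 0.07). Pdpk1, the kinase that activates AKT (-1.42 ± 0.08), and Pik3r2, a PI3-kinase regulatory subunit (-1.22 ± 0.15), were lowest among those called. Of the 21, 7 were higher in the ES IPs than in the JL IPs, 7 lower and 7 did not pass, with Igf1r at -2.15 ± 0.21 and the insulin receptor gene Insr at -1.40 ± 0.18 the lowest, and Pik3r2 (2.04 ± 0.20) and Irs2 (1.92 ± 0.29) the highest, where 57.9% of all genes were called. Of the 21, 7 were higher in the ES IPs than in the inputs, led by Irs2 (1.14 ± 0.22) and Akt2 (1.10 ± 0.12), 3 were lower, among them Skp2 (-0.64 ± 0.19), and 11 did not pass. Over all genes tested in that comparison, 26.9% were higher and 25.3% were lower.

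Of 25 genes listed as FOXO targets, 24 could be tested in JL IP against input: 16 were higher, 4 lower and 4 did not pass, with a median of 1.15, against 36.7% higher, 37.4% lower and a median of -0.09 over all genes. The death ligand gene Tnfsf10 averaged 200 ± 46.8 CPM in the JL IPs and 1.23 ± 0.629 CPM in the inputs (7.33 ± 0.36). Txnip, which codes for a thioredoxin-binding protein, averaged 394 ± 55.9 CPM in the JL IPs and 9.70 ± 2.35 CPM in the inputs (5.34 ± 0.20). Lowest among those called were Spry2, a feedback inhibitor of growth factor signalling (-1.01 ± 0.12), and Sod2, the mitochondrial superoxide dismutase (-0.97 ± 0.08). Of the 25, 7 were higher in the ES IPs than in the JL IPs, 13 lower and 5 did not pass, against 29.7% higher and 28.2% lower over all genes. Tnfsf10 (-3.72 ± 0.28) and Angpt2, which codes for a ligand of the Tie2 receptor (-3.14 ± 0.26), were lowest, and Spry2 (2.18 ± 0.18) and Trim63 (3.86 ± 1.07) were highest, Trim63 with a mean of 0.341 CPM in the ES IPs and 0.0227 CPM in the JL IPs. In the ES IPs against the inputs, 14 were higher, led by Tnfsf10 (3.54 ± 0.41) and Txnip (3.20 ± 0.20), Mxi1 (-0.47 ± 0.11) and Sod2 (-0.33 ± 0.11) were lower, and 9 did not pass. All genes tested there were 26.9% higher and 25.3% lower.

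Of 8 vascular genes listed as targets of FOXC and FOXF factors, 6 were higher in the JL IPs than in the inputs and none was lower, with a median of 4.79. Over all genes tested, 36.7% were higher, 37.4% were lower and the median was -0.09. The 6 were led by Tek, the Tie2 receptor gene (7.84 ± 0.18), and Dll4, a Notch ligand gene of arteries and sprouts (7.67 ± 0.22). The sphingosine receptor gene S1pr1 (4.78 ± 0.11) and Hey2, a Notch target (2.14 ± 0.19), rose least among those called. Cxcr4 (0.12 ± 0.63) and Itgb3 (-1.06 ± 0.43) did not pass. In the ES IPs against the JL IPs, 6 were lower, from Hey2 (-1.42 ± 0.23) to Tek (-2.76 ± 0.19) and Kdr (-3.42 ± 0.21), Itgb3 was higher (1.77 ± 0.46) and Cxcr4 did not pass. In the ES IPs against the inputs 6 were higher, from Hey2 (0.65 ± 0.16) and Pdgfb (2.47 ± 0.22) to Tek (4.99 ± 0.23) and Dll4 (5.42 ± 0.48), and 2 did not pass. Tek and Kdr also stand in the pan-endothelial list, so this count is not separate from the endothelial markers.

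Around the clusters, the noncoding neighbours that start beside FOXF genes were enriched in the IPs. 1700018A04Rik, beside Foxf2, had 10.1, 8.35 and 9.24 CPM in the JL IPs, against 0.0785, 0.0599 and 0.152 CPM in the inputs (log2 fold change 6.55 ± 0.37, adjusted p = 5.64e-07). Fendrr, a noncoding RNA that starts 1275 bases from Foxf1 on the opposite strand, had 11.5, 16.4 and 11.4 CPM in the JL IPs, against 0.157, 0.279 and 0.413 CPM in the inputs (log2 fold change 5.53 ± 0.36, adjusted p = 1.5e-06). Both had fewer than 20 counts in each input, and whether reads of a coding gene were counted in its opposite-strand neighbour was not tested.
In the ES IPs against the JL IPs, 1700018A04Rik had -3.04 ± 0.36 and Fendrr -2.99 ± 0.34. Other neighbours did not share these sizes in JL IP against input: Gmds, beyond Foxc1, had 2.23 ± 0.18, Foxl1 2.71 ± 0.63 from 52 counts over the JL IPs and 12 over the inputs, Mthfsd, between Foxf1 and Foxc2, 0.18 ± 0.21 (adjusted p = 0.446), Irf8 -1.37 ± 0.41 and Fbxo31 -1.40 ± 0.15.

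**Figure D5:**
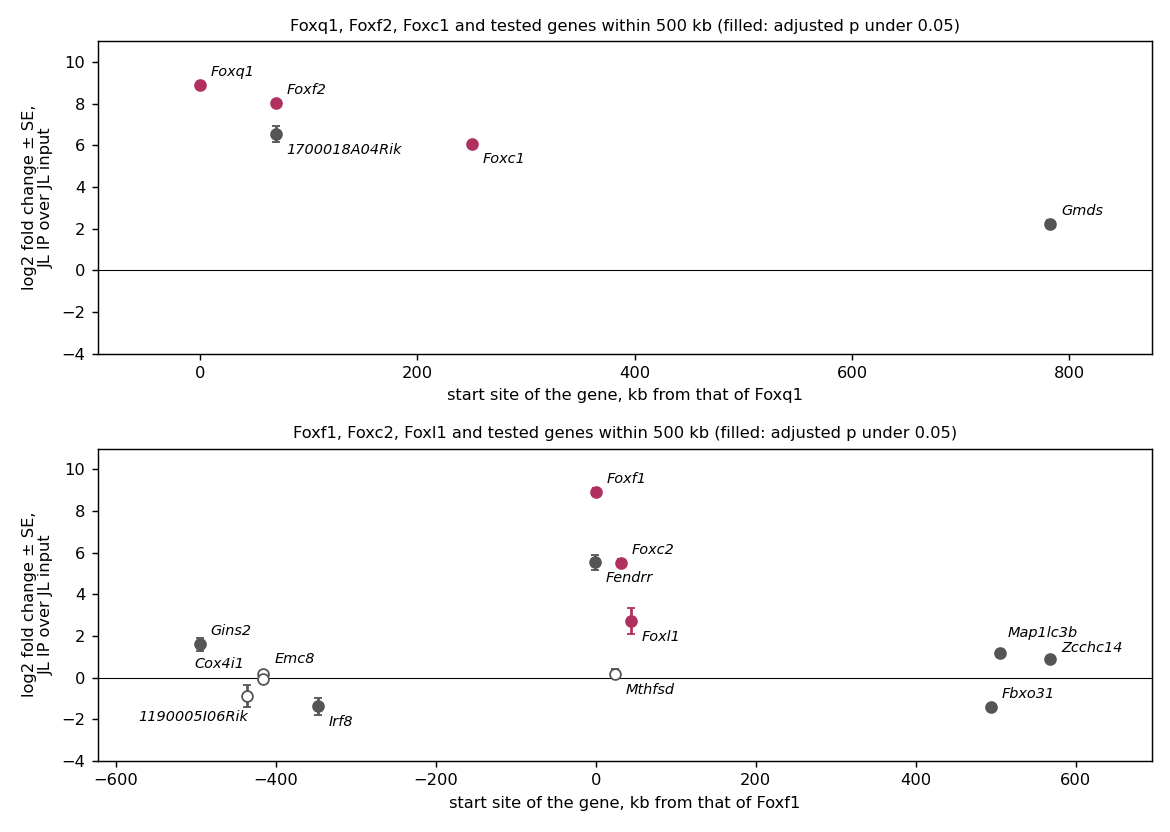
Log2 fold change ± SE, JL IP over JL input, of tested genes within 500 kb of the Foxq1, Foxf2 and Foxc1 cluster (top) and of the Foxf1, Foxc2 and Foxl1 cluster (bottom), against the distance of each gene's start site in kb. Forkhead genes are in red and others in grey, filled where the adjusted p was under 0.05, and the largest values besides the forkhead genes belong to 1700018A04Rik (6.55) and Fendrr (5.53).

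Finally, genes whose pattern over the 9 libraries was most like that of each factor were listed by the root-mean-square difference of log2 levels, each centred on its own mean, among 10212 genes. The 9 libraries fall into 3 groups that differ strongly, so any endothelial gene can match, and no test was made. Closest to Foxf2 were Slc52a3, a riboflavin transporter gene (difference 0.11), She (0.13) and Tmem204 (0.18), and closest to Foxq1 were Gimap6 (0.19), Slc52a3 (0.24) and Foxf2 itself (0.25). Closest to Foxf1 were Ramp2, a receptor-activity-modifying protein gene (0.16), Ushbp1 (0.16) and Bcam (0.17).
Foxc1 was most like Arap3 (0.09), Atp10a (0.13) and Gpr4 (0.14), and Foxc2 most like Slc12a7 (0.09), Ltbp4 (0.13) and Atp2a3 (0.14). Foxo1 was most like Dock1 (0.10), Axin2, a Wnt feedback gene (0.13), and Utrn (0.13). Foxo3 was most like Stk35 (0.12), Rnf44 (0.13) and Efnb2, the ephrin-B2 gene (0.13), and Foxp1 most like Atf7 (0.06), Sprtn (0.07) and Crtc3 (0.07). Foxq1 and Foxf2, neighbours on chromosome 13, were the nearest pair among the 8, though Foxq1 ranked 10 among the genes most like Foxf2. Among the 8, Foxc1 of the same cluster was nearest to Foxc2 on chromosome 8 (0.48). Foxf1 on chromosome 8 was nearest to Foxf2 (0.33).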

How the data were processed

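The authors deposited raw counts of reads for each gene, with a file for every library. The submitters' processing notes name STAR 2.0.0e as aligner, mm10 as genome and HTSeq as counter. Annotation, strand setting and filters: not given in the sources used here. HTSeq's special rows were left out of library sizes, and reads without a feature came to 17.3 to 24.4% beside the gene counts. Each comparison used edgeR 4.0.16 in R 4.3.3 on its own 6 libraries (filterByExpr, TMM factors, glmQLFit, glmQLFTest), checked on simulated data; p-values were adjusted by Benjamini-Hochberg across every gene tested, with 0.05 as threshold. SE is the size of the log2 fold change over the root of its F statistic. CPM values use TMM factors over all 9 libraries, and lengths are GENCODE M21 exon unions. The 8 genes, the lists and the tests were chosen with earlier results of these data known. Named genes were the 8, forkhead genes of at least 1 CPM, the 2 most and 2 least changed called genes of each list (those of the cell marker lists are printed in part), cluster neighbours within 500 kb and the 3 most alike genes (minimum 10 CPM, no predicted genes); 2 genes that meet this rule are not reported here. DESeq2 1.42.0, other scalings, no filter, 1 fit of all libraries, a replicate block and each library left out were alternatives.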

Additional observations from a re-analysis of the deposited data

How the results depend on the processing

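Every fold change of the 8 genes kept its direction and its side of the threshold under upper-quartile scaling, library sizes alone, DESeq2, no filter, 1 fit of all 9 libraries and a replicate block, and so did each count of them called; the counts over all genes stayed within 1.5 times. The exception among the fits that left out 1 library was Foxp1 in the ES IPs against the inputs, called without ES IP replicate 1 (0.43, adjusted p = 0.00108). Scaling moved the median of all genes by -0.25 (upper quartile) and -0.26 (library sizes) in JL IP against input. With the mean in place of the median of the pan-endothelial list, relative levels moved: for JL IP minus input to -0.0349 (Foxf1), 0.66 (Foxf2), 0.96 (Foxq1), -1.05 (Foxc1), -2.11 (Foxc2), -4.42 (Foxo1), -6.05 (Foxo3) and -5.48 (Foxp1); for ES IP minus input to 0.39 (Foxf1, reversed from -0.06), 0.81 (Foxf2), 1.27 (Foxq1), -1.02 (Foxc1), -1.79 (Foxc2), -3.47 (Foxo1), -3.10 (Foxo3) and -3.81 (Foxp1); and for ES IP minus JL IP to 0.15 (Foxf2). All of these follow from that change of the reference alone, which shifts every gene of a comparison equally. Shifts within the SD of the libraries are not listed, among them Foxc1 for ES IP minus JL IP, which crossed 0 from -0.09. Same-numbered libraries deviated from their group means with correlations of 0.19, 0.09 and 0.13 (JL IP, input), 0.11, -0.05 and 0.06 (ES IP, JL IP) and 0.04, 0.03 and 0.04 (ES IP, input). The main tests did not take the numbers as pairs. In JL IP against input, each IP correlated best with its own number, and lanes and Ddx3y counts matched by number too, so these libraries may be paired. With the replicate block 8 of the 8 genes were higher there, as without it. The block gave 7 lower in ES against JL IP and 7 higher in ES IP against input. Foxf1 in the inputs rests on 5 to 11 counts, which limits the precision of its fold.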
